A study of Mus musculus with 12 samples.

Results

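The 49 genes described here are a set of mouse cell cycle and DNA replication genes, taken by symbol from a table of read counts that holds 56748 gene rows. They fall into 3 roles: 7 genes that control entry into S phase, 15 that copy DNA or supply its building blocks, and 27 that build the spindle, separate the chromosomes or divide the cell. All 49 passed the filter on low counts, among the 15742 genes tested in all. The genes were listed by function and not by a threshold on their values, although earlier results of these data were known when the list was made.

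The libraries came from the left ventricle of wild-type C57BL/6J mice. Every mouse received an AAV9 vector, an adeno-associated virus that reaches heart muscle cells, and had surgery afterwards. The Irx3 infarction group carried the vector that overexpresses Irx3, a homeobox transcription factor, and had a myocardial infarction from ligation of the left anterior descending coronary artery; the control infarction group had the same operation with the control vector; the sham group had the control vector and sham surgery. Tissue was taken 14 days after surgery, with 4 libraries in each of the 3 groups. No group combined the Irx3 vector with sham surgery, so an effect of the vector outside infarction was not measured, and the promoter that drives the transgene is not given in the sources used here. All 12 libraries carry the same batch label. Irx3 itself, which checks the labels, averaged 393 ± 111 CPM (read counts scaled to the size of each library) in the Irx3 infarction group, 23.1 ± 6.89 CPM in the control infarction group and 24.5 ± 2.65 CPM in the sham group (SD, n = 4 each).

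A cell that divides passes through an ordered program. D cyclins with CDK4 and CDK6, and E cyclins with CDK2, phosphorylate the retinoblastoma protein and release E2F factors, which switch on the genes of DNA replication. The licensing factors then load the MCM helicase onto DNA, polymerases copy it, and a later wave of genes, driven by FOXM1 and B-MYB with the MuvB complex, builds the mitotic machinery. Adult mouse heart muscle cells rarely divide, while fibroblasts, macrophages and endothelial cells of an infarcted ventricle can do so, and heart muscle cells are also known to replicate DNA without dividing.

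The replication genes and the mitosis genes differ in the sequence next to their start sites, a feature that the choice of genes did not use. RefSeq promoter windows of 300 bases (250 before and 50 after the start, build GRCm38.p6) were found for 40 of the 49 genes; the count table itself uses GRCm39, so these coordinates belong to the RefSeq table alone. The motifs searched on both strands were TTTGAA, the core of the cell cycle homology region (CHR) bound by MuvB complexes, CCAAT, the box bound by NF-Y, and TTTNNCGC, a form of the E2F site. The CHR core was in 15 of 22 mitosis promoters (68.18%) and 2 of 14 replication promoters (14.29%), against 18.11% of all 27025 promoters in the table. The E2F form had the opposite distribution, in 7 of 14 replication promoters (50%) and 1 of 22 mitosis promoters (4.545%, that of Cdk1), against 5.273% of all promoters. CCAAT was in 17 of 22 mitosis promoters (77.27%) and 10 of 14 replication promoters (71.43%), against 37.92% of all promoters. A match describes the letters and does not show a bound site.

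The promoters of 4 genes are shown to let these layouts be seen. Cdk1 and Rrm2 are the mitosis and replication genes with the smallest p after infarction among those with a window. Mcm5 carries the E2F form, and Cdc20 carries the pairing of a CHR core with CCAAT boxes that 14 of 22 mitosis promoters hold (63.64%, against 7.123% of all promoters). Capitals mark matches to any of the 3 motifs on either strand, and each window reads 5′ to 3′ along the strand of its gene. The positions are chr10:69352863-69353162 (minus strand) for Cdk1, chr12:24708004-24708303 (plus strand) for Rrm2, chr8:75109259-75109558 (plus strand) for Mcm5 and chr4:118437294-118437593 (minus strand) for Cdc20.
Rrm2: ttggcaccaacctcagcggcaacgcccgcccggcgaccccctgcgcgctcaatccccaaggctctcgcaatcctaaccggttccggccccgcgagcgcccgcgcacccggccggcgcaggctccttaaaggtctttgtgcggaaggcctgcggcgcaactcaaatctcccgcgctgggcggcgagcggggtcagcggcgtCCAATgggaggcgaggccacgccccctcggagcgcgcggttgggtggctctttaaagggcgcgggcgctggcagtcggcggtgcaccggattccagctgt
Mcm5: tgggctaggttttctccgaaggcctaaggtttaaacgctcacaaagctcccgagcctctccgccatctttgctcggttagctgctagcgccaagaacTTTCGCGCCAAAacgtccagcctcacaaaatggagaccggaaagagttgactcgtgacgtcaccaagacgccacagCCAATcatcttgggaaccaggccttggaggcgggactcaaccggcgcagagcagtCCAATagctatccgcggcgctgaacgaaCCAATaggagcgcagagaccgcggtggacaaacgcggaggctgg
Cdk1: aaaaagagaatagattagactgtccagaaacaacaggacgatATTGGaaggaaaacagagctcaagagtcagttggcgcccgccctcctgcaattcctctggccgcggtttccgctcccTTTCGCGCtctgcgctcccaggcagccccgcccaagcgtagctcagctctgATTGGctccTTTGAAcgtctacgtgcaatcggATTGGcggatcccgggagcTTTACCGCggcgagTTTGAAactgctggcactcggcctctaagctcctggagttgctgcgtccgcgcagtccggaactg
Cdc20: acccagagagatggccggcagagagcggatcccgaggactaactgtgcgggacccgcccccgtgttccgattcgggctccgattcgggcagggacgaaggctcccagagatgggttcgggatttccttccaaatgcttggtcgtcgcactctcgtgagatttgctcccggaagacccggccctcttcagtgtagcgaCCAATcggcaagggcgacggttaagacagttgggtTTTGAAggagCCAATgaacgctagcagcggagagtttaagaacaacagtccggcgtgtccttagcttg
The Mcm5 window holds 2 E2F matches, which lie on opposite strands and overlap, and 3 CCAAT boxes. The Cdc20 window holds 1 CHR core and 2 CCAAT boxes. The promoter of Ccnb1, whose level rose most after infarction, holds 2 CCAAT boxes and no CHR core in its window.

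Total counts ran between 13352604 and 19236721 in the Irx3 infarction libraries, 16081360 and 18738571 in the control infarction libraries, and 15966982 and 18441830 in the sham libraries. The labels name cardiomyocytes, but markers of other cells were plainly present: the summed level of 10 fibroblast markers lay between 3868 and 25458 CPM in the Irx3 infarction libraries, 13225 and 36700 CPM in the control infarction libraries and 698 and 893 CPM in the sham libraries. Mitochondrially encoded genes took 10.4% to 19.0% of counts in the Irx3 infarction libraries, 0.926% to 5.64% in the control infarction libraries and 4.5% to 8.22% in the sham libraries. In bulk tissue, fewer cells of a type cannot be told apart from less RNA per cell. Whether the libraries of a group came from separate mice is not labelled beyond their being separate samples, so p-values measure the spread between these samples. The strand used in counting is not given, so reads of a gene and of an antisense partner cannot be separated.

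After infarction with the control vector, against sham, 40 of the 49 genes rose and 9 were not called (edgeR quasi-likelihood test, adjusted p under 0.05), where 26.3% of all tested genes rose and 22.4% fell. None of the 49 fell, also not at an unadjusted p under 0.05 or by DESeq2. The median log2 fold change was 1.58 over the 49 genes and 0.01 over all tested genes. It was 0.59 in S phase entry genes (3 of 7 rose), 1.30 in replication genes (13 of 15 rose) and 2.10 in mitosis genes (24 of 27 rose). The 4 infarction libraries lay above all 4 sham libraries for 37 of the 49 genes, against 24.5% of all tested genes, and below them for none, against 22.8%. With a correction for the GC content of transcripts, described below, 41 rose, where 29.3% of all tested genes rose. The genes not called without it were Ccnd1, Ccnd3, Ccne2, E2f8, Cdc45, Pcna, Cenpa, Cenpf and Nusap1.

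With the Irx3 vector, against the control vector in infarcted ventricles (called the vector comparison below), the set split: 4 genes were higher, 18 lower and 27 not called, where 25.2% of all tested genes were higher and 24.1% lower. The median log2 fold change was -0.39 over the 49 genes and 0.00 over all tested genes. Replication genes contributed 1 higher and 7 lower, mitosis genes 1 higher and 9 lower, and S phase entry genes 2 higher and 2 lower. The libraries of the groups did not overlap for 2 higher and 14 lower genes, against 22.1% and 18.9% of all tested genes. The share of genes lower is above the share in all tested genes, and the share higher is below it.

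Fold changes of this vector comparison moved with the GC content of the transcript, within the 49 genes and across the whole table. Spearman's rho between GC content and log2 fold change was -0.58 over the 49 genes and -0.65 over 15182 genes, a description across genes, which are not independent. For control infarction against sham it was -0.01 over the 49 genes and 0.04 over all genes. For Irx3 infarction against sham it was -0.54 and -0.44, so values of that comparison given without the correction carry the trend too. Among the 16 genes with the highest GC content (50.9% to 58.3%) 12 were lower and 1 higher with the Irx3 vector, and the median was -1.16 log2 units. For the 17 genes with the lowest GC content (36.3% to 46.1%) 2 were lower and 3 higher, and the median was 0.07. Medians over all tested genes in bins of GC content fell from -0.16 at 51.2% to -0.66 at 58.6%. Toward low GC content they ran from 0.33 at 46.3% to 1.49 at 36.5%. The share called among all tested genes of like GC content is not given here. A correction that removes the smooth trend with GC content over all genes brought rho of the vector comparison to -0.02 in both sets. It left 1 of the 49 genes higher and 17 lower, where 14.7% of all tested genes were then higher and 13.3% lower. The corrected median was -0.67 over the 49 genes and 0.03 over all tested genes, and by GC content it was -0.69 in the lowest, -0.30 in the middle and -0.77 in the highest group of genes. The correction turned the sign of 10 of the 49 genes in the vector comparison, of which 3 were called lower with it (Rrm1, Mad2l1 and Ect2) and 7 were called in neither analysis (Mcm4, Top2a, Mybl2, Bub1, Cenpe, Kif11 and Kif23). The cause of the trend with GC content was not tested.

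**Figure D1:**
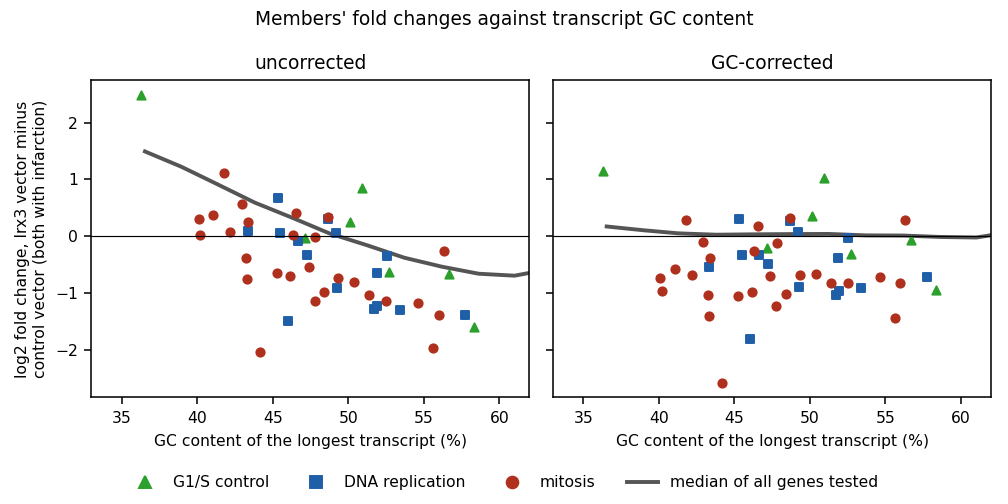
GC content of the transcript in percent (horizontal) against log2 fold change of the Irx3 infarction group over the control infarction group (vertical), before and after the correction for GC content, with the 49 genes coloured by role and the running median of all tested genes as a line. Before the correction the genes follow the falling line of all genes (rho -0.58); after it the line is nearly flat and most of the genes lie below it (median -0.67).

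Both analyses called the same 12 genes lower: E2f1, Cdt1, Cdc45, Mcm2, Mcm5, Mcm7, Rrm2, Cdk1, Ccnb1, Foxm1, Cdc20 and Kif20a. The corrected call held in all 8 fits that left out 1 infarction library for Cdc45, Mcm2, Mcm5, Mcm7, Rrm2, Ccnb1 and Cdc20. It was lost in 7 of the 8 for Foxm1 (adjusted p up to 0.131), 6 for E2f1 (up to 0.112), 5 for Cdt1 (up to 0.0985) and 4 for Kif20a (up to 0.0941), each time highest without Irx3 infarction replicate 2, and in 1 for Cdk1 (0.0537, without control infarction replicate 3). There were 6 genes lower only without the correction (Ccnd3, Tk1, Plk1, Aurka, Aurkb and Bub1b) and 5 only with it (Rrm1, Prc1, Ect2, Anln and Mad2l1). Of these 5, Rrm1 and Prc1 held in all 8 fits, while Anln was lost in 7, and Ect2 and Mad2l1 in 4 each. Ccnd1 was the gene called higher in both analyses; Ccne2, Pcna and Nusap1 were higher only without the correction.

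Infarction with the Irx3 vector, against sham, gave 36 higher genes, 3 lower and 10 not called, where 35.2% of all tested genes were higher and 27.7% lower. The median log2 fold change was 1.19, against 0.12 over all tested genes. The libraries did not overlap for 30 higher and 3 lower genes, against 33.2% and 27.6% of all tested genes. The 3 lower genes were Ccnd3, Cdc45 and Mcm7, and the 10 not called were Ccne1, E2f8, Cdt1, Mcm2, Mcm5, Tk1, Cdc20, Cenpa, Cenpf and Kif20a. With the correction for GC content 33 were higher and 2, Cdc45 and Cenpf, lower, against 32.2% and 22.1% of all tested genes. Of the 10, Mcm5 at 0.80 log2 units (adjusted p = 0.0129), E2f8 at 1.05 log2 units (adjusted p = 0.0265) and Cenpa at 0.62 log2 units (adjusted p = 0.0334) were then higher, and Cenpf lower at -1.43 log2 units (adjusted p = 0.00607). Leaving out 1 infarction library, the corrected call was lost in 2 of 8 fits for E2f8 (adjusted p up to 0.0893) and 3 for Cenpa (up to 0.0761). For Mcm5 and Cenpf it held in all 8. The rises of Ccne2, Mcm4, Rrm1, Mad2l1, Prc1 and Ect2, and the lower levels of Ccnd3 and Mcm7, were not called with the correction. The 3 comparisons share libraries, so they are not independent: the control infarction group stands in the first and the vector comparison, and the sham group in the first and this one.

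**Figure D2:**
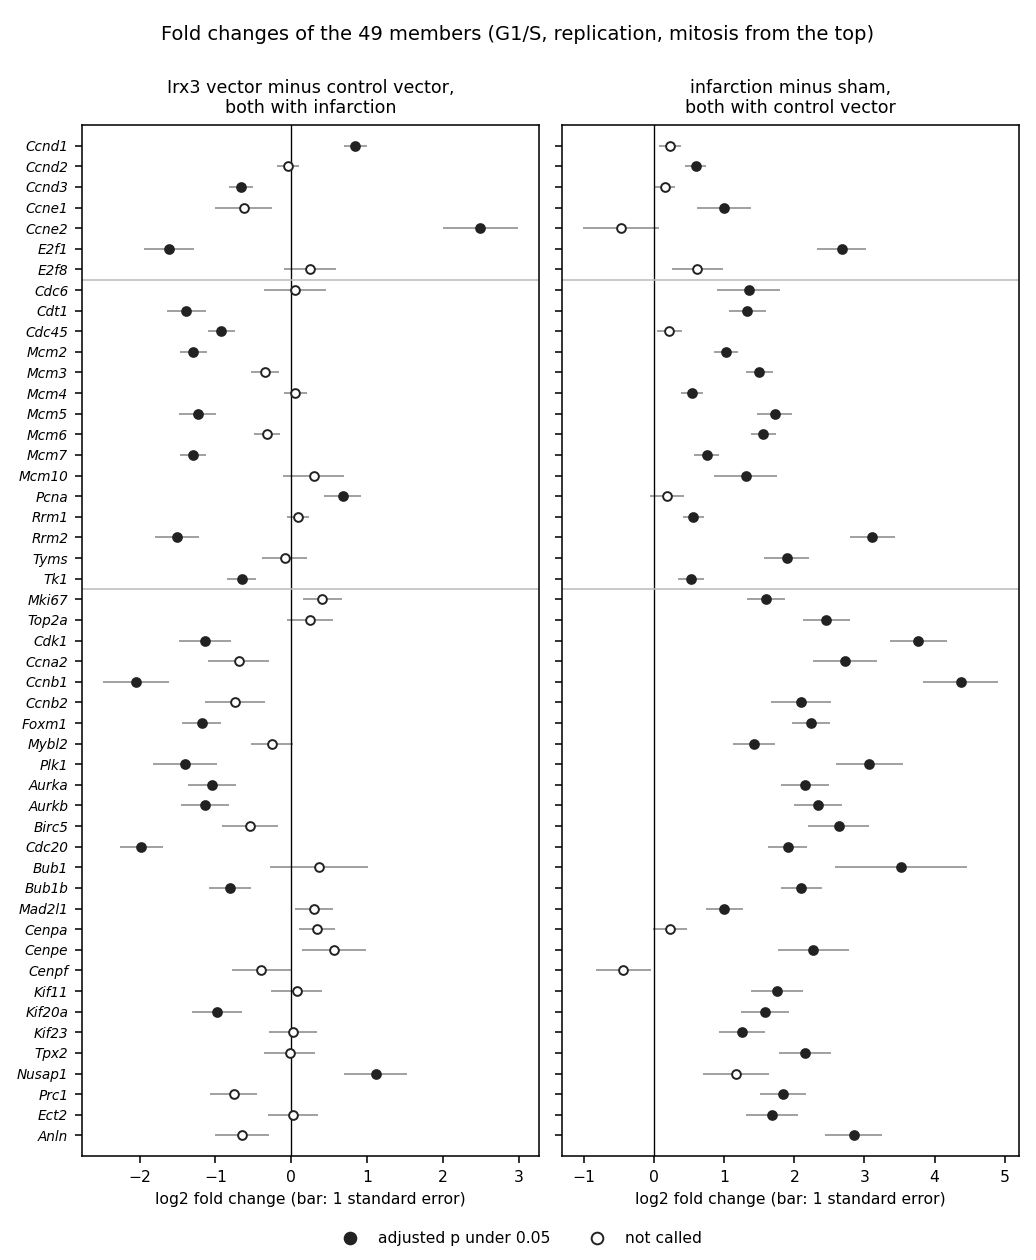
Log2 fold change (points; bars are 1 standard error) of each of the 49 genes, grouped by role down the page, for the Irx3 infarction group over the control infarction group (left) and the control infarction group over sham (right); filled points have an adjusted p under 0.05. Most genes lie right of 0 after infarction, with Ccnb1 farthest at 4.37, and Ccne2 (2.49) and Nusap1 (1.11) lie farthest above 0 with the Irx3 vector.

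Values in log2 units below are log2 fold changes ± SE from edgeR, CPM means carry ± SD (n = 4), and corrected means corrected for GC content. The D cyclins, which receive growth signals at the start of the cycle, had the highest mean levels per length of the 49 genes. Per kilobase of transcript, Ccnd2 stood at 24.5 ± 2.44 CPM, Ccnd1 at 23.6 ± 4.52 CPM and Ccnd3 at 13.7 ± 2.52 CPM in the Irx3 infarction group. In the control infarction group Ccnd2 stood at 25.2 ± 3.99, Ccnd3 at 21.7 ± 4.00 and Ccnd1 at 13.1 ± 0.72 CPM per kilobase, and in sham Ccnd3 led with 19.6 ± 1.52, before Ccnd2 at 16.7 ± 2.52 and Ccnd1 at 11.2 ± 2.07. Ccnd2 and Ccnd1 in the Irx3 infarction group, and Ccnd2 and Ccnd3 in the control infarction group, were within 1 SD of each other, and the other neighbours among the D cyclins were not. The lowest D cyclin of each infarction group was also within 1 SD of the next gene. That gene was Pcna (12.4 ± 2.12) in the Irx3 infarction group and Mcm7 (11.6 ± 2.98) in the control infarction group.

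Ccnd1, cyclin D1, was higher with the Irx3 vector. It had 91.2, 76.9, 73.6 and 111 CPM in the Irx3 infarction libraries, 52.9, 47.8, 47.0 and 48.3 CPM in the control infarction libraries and 48.0, 49.2, 36.2 and 34.5 CPM in the sham libraries. The 4 Irx3 infarction libraries were all above the other 8. The log2 fold change over control infarction was 0.85 ± 0.15 log2 units (adjusted p = 0.0007), and 1.02 log2 units (adjusted p = 0.000602) with the correction for GC content. Against sham, control infarction gave 0.22 ± 0.15 log2 units (adjusted p = 0.247) and Irx3 infarction 1.07 ± 0.15 log2 units (adjusted p = 7.12e-05).

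Ccnd3, cyclin D3, was lower with the Irx3 vector before the correction for GC content. It had 50.6, 48.6, 45.5 and 67.2 CPM in the Irx3 infarction libraries, 91.7, 72.6, 69.4 and 102 CPM in the control infarction libraries and 70.9, 78.4, 82.4 and 70.3 CPM in the sham libraries. The Irx3 infarction libraries were all below the others of both groups. Over control infarction it was at -0.66 ± 0.15 log2 units (adjusted p = 0.00303), but -0.07 log2 units (adjusted p = 0.707) once GC content was corrected for, and against sham the uncorrected -0.51 ± 0.15 log2 units (adjusted p = 0.00997) became 0.05 log2 units (adjusted p = 0.755). Ccnd2, cyclin D2, had 174, 161, 140.1 and 146 CPM in the Irx3 infarction libraries, 173, 172, 172 and 122 CPM in the control infarction libraries and 101, 98.9, 129 and 94.1 CPM in the sham libraries. Both infarction groups were higher than sham, with log2 fold changes of 0.55 ± 0.15 log2 units (adjusted p = 0.00521) for Irx3 infarction and 0.59 ± 0.15 log2 units (adjusted p = 0.00493) for control infarction, while the vector comparison gave -0.04 ± 0.15 log2 units (adjusted p = 0.842), or -0.22 log2 units (adjusted p = 0.269) corrected.

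The E cyclins, which act with CDK2 at the start of S phase, were weakly expressed. Ccne2 had 2.12, 1.39, 2.34 and 3.88 CPM in the Irx3 infarction libraries, 0.154, 0.732, 0.683 and 0.155 CPM in the control infarction libraries and 0.632, 0.691, 0.614 and 0.417 CPM in the sham libraries. Its Irx3 infarction libraries were above all others. Over control infarction it was at 2.49 ± 0.50 log2 units (adjusted p = 0.00124). Ccne2 has the lowest GC content of the 49 genes (36.3%), and the corrected log2 fold change was 1.15 log2 units (adjusted p = 0.0603). Ccne1 had 1.88, 1.53, 0.654 and 2.36 CPM in the Irx3 infarction libraries, 2.16, 2.26, 2.79 and 2.63 CPM in the control infarction libraries and 1.69, 1.70, 0.683 and 0.834 CPM in the sham libraries. Its control infarction libraries were all above sham, at 1.00 ± 0.39 log2 units (adjusted p = 0.0466), a call that was lost when any of 8 of the 12 libraries was left out (adjusted p up to 0.127, without sham replicate 3).

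E2f1, an activator of replication genes and itself an E2F target, had 5.33, 2.25, 2.67 and 3.65 CPM in the Irx3 infarction libraries, 9.98, 7.44, 11.4 and 13.5 CPM in the control infarction libraries and 2.04, 1.63, 2.25 and 0.695 CPM in the sham libraries. The control infarction libraries were the highest of the 3 groups with no overlap. The log2 fold change was 2.67 ± 0.35 log2 units (adjusted p = 9.68e-05) for control infarction over sham, a 6.38-fold difference, and -1.61 ± 0.33 log2 units (adjusted p = 0.00152) for the Irx3 vector over the control vector, or -0.94 log2 units (adjusted p = 0.0407) with the correction for GC content. Irx3 infarction over sham gave 1.07 ± 0.35 log2 units (adjusted p = 0.0181), which was 0.72 (adjusted p = 0.0946) without Irx3 infarction replicate 1. With the correction and all libraries it was 1.67 log2 units (adjusted p = 0.00138). E2f8, a repressor of the E2F family, was not called in any of the 3 comparisons without the correction (0.24 for the vector, 0.62 for control infarction over sham and 0.86 for Irx3 infarction over sham).

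**Figure D3:**
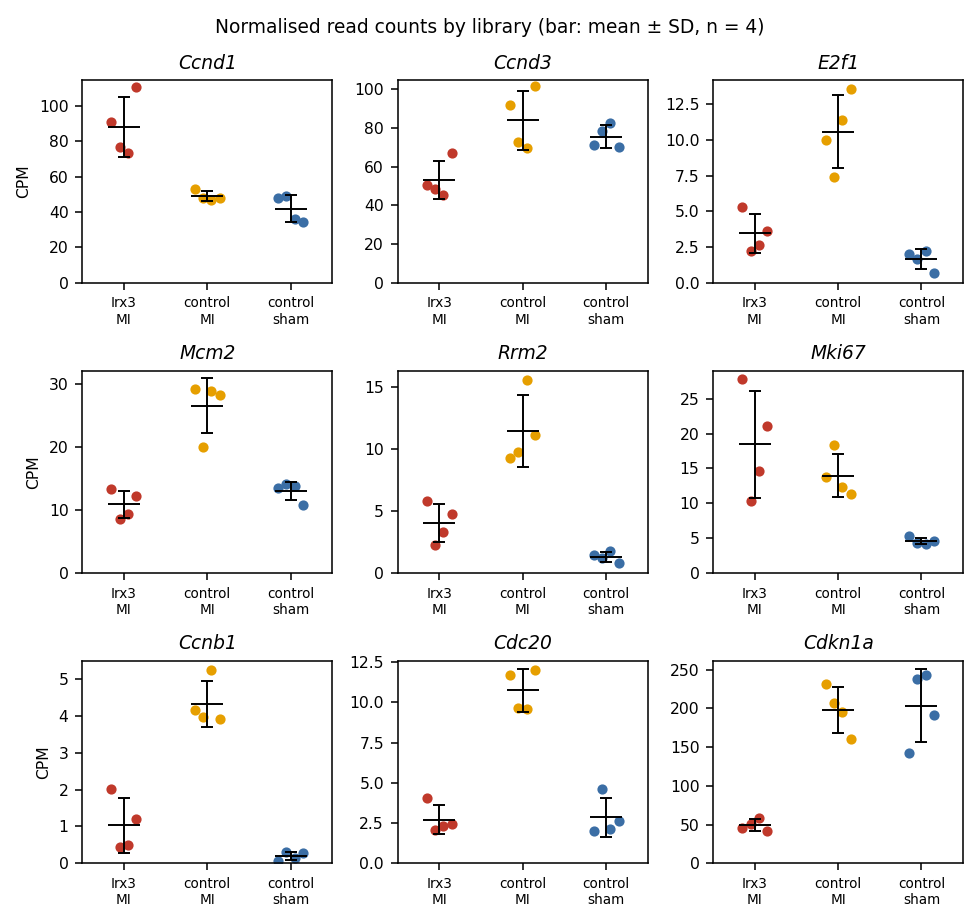
CPM in each library (points, 4 per group) with the group mean and SD (bar), for 9 of the genes: Ccnd1, Ccnd3, E2f1, Mcm2, Rrm2, Mki67, Ccnb1, Cdc20 and Cdkn1a, an inhibitor outside the 49 genes. E2f1, Mcm2, Rrm2, Ccnb1 and Cdc20 peak in the control infarction libraries, Ccnd1 peaks in the Irx3 infarction libraries, and Cdkn1a is at 42.0 to 58.8 CPM in the Irx3 infarction libraries and at 142 CPM or more in all others.

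The MCM2 to MCM7 proteins form the ring that unwinds DNA, in equal numbers. Mcm2, Mcm5 and Mcm7 were lower with the Irx3 vector, and Mcm3, Mcm4 and Mcm6 were not called; the difference between these genes was not tested. Mcm2 had 13.3, 8.62, 9.42 and 12.2 CPM in the Irx3 infarction libraries, 29.2, 19.9, 28.9 and 28.2 CPM in the control infarction libraries and 13.4, 14.1, 13.7 and 10.8 CPM in the sham libraries. Its control infarction libraries were above the other 8, and the Irx3 infarction libraries lay in and just below the sham range. The log2 fold change was -1.29 ± 0.17 log2 units (adjusted p = 0.000109) for the vector, -1.04 log2 units (adjusted p = 0.00097) corrected, and 1.03 ± 0.17 log2 units (adjusted p = 0.000424) for control infarction over sham.

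Mcm7 had 16.2, 13.6, 13.6 and 12.5 CPM in the Irx3 infarction libraries, 31.4, 26.7, 32.5 and 47.1 CPM in the control infarction libraries and 21.5, 17.5, 24.4 and 18.6 CPM in the sham libraries. Its Irx3 infarction libraries were below every other library. The vector comparison gave -1.30 ± 0.18 log2 units (adjusted p = 0.000112), or -0.91 log2 units (adjusted p = 0.00164) corrected, and Irx3 infarction over sham -0.55 ± 0.18 log2 units (adjusted p = 0.0153). That last call was lost with the correction (-0.14 log2 units, adjusted p = 0.496) and without sham replicate 3 (adjusted p = 0.0514). Mcm5 had 11.4, 7.09, 5.99 and 11.4 CPM in the Irx3 infarction libraries, 17.9, 15, 24.3 and 26.9 CPM in the control infarction libraries and 5.69, 6.34, 7.85 and 5.70 CPM in the sham libraries. Its vector comparison gave -1.23 ± 0.24 log2 units (adjusted p = 0.0011), or -0.97 log2 units (adjusted p = 0.00886) corrected, and control infarction over sham 1.72 ± 0.25 log2 units (adjusted p = 0.000158). In both genes the Irx3 infarction libraries lay below all control infarction libraries.

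Mcm6 and Mcm3 rose in infarction with either vector. Mcm6 had 24.3, 15.1, 18.1 and 16.9 CPM in the Irx3 infarction libraries, 21.6, 21.9, 22.9 and 27.02 CPM in the control infarction libraries and 8.85, 8.48, 5.87 and 8.62 CPM in the sham libraries. All 8 infarction libraries were above sham, at 1.23 ± 0.18 log2 units (adjusted p = 7.15e-05) with the Irx3 vector and 1.55 ± 0.18 log2 units (adjusted p = 4.33e-05) with the control vector, and the vector comparison gave -0.33 ± 0.17 log2 units (adjusted p = 0.129), or -0.50 log2 units (adjusted p = 0.051) corrected. Without Irx3 infarction replicate 1 Mcm6 was called lower at -0.48 (adjusted p = 0.0314). Mcm3 had 15.6, 12.3, 11.5 and 14.5 CPM in the Irx3 infarction libraries, 15.02, 14.3, 18.7 and 20.5 CPM in the control infarction libraries and 7.58, 5.71, 6.69 and 4.24 CPM in the sham libraries. Its infarction libraries were again all above sham, at 1.15 ± 0.19 log2 units (adjusted p = 0.000218) with the Irx3 vector and 1.5 ± 0.19 log2 units (adjusted p = 8.41e-05) with the control vector, with -0.35 ± 0.19 log2 units (adjusted p = 0.139) between vectors, or -0.04 log2 units (adjusted p = 0.902) corrected. Mcm4 rose at 0.53 ± 0.16 log2 units (adjusted p = 0.0134) for control infarction over sham, which was 0.39 (adjusted p = 0.0723) without control infarction replicate 4, and the vector comparison gave 0.05 ± 0.16 log2 units (adjusted p = 0.794), or -0.34 log2 units (adjusted p = 0.176) corrected.

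Of the factors that load and start the helicase, Cdt1 and Cdc45 were lower with the Irx3 vector. Cdt1, which loads MCM rings, had 5.68, 3.11, 3.76 and 3.496 CPM in the Irx3 infarction libraries, 9.67, 6.34, 10.4 and 15.6 CPM in the control infarction libraries and 3.93, 4.14, 4.23 and 4.38 CPM in the sham libraries. Its Irx3 infarction libraries were all below the control infarction libraries and spanned the sham range. Between the vectors the change was -1.38 ± 0.26 log2 units (adjusted p = 0.00086), or -0.73 log2 units (adjusted p = 0.0333) corrected. Control infarction over sham gave 1.33 ± 0.26 log2 units (adjusted p = 0.00113). Irx3 infarction over sham gave -0.05 ± 0.26 log2 units (adjusted p = 0.869), or 0.54 log2 units (adjusted p = 0.0739) corrected. Cdc45, a part of the active helicase, had 2.37, 3.35, 2.72 and 2.66 CPM in the Irx3 infarction libraries, 4.58, 4.94, 6.26 and 5.32 CPM in the control infarction libraries and 4.49, 4.65, 4.64 and 4.38 CPM in the sham libraries. It was the replication gene that fell with the Irx3 vector to below sham in both analyses. The log2 fold change was -0.92 ± 0.18 log2 units (adjusted p = 0.00107) over control infarction, -0.89 log2 units (adjusted p = 0.00212) corrected, and -0.71 ± 0.18 log2 units (adjusted p = 0.00412) over sham, -0.59 log2 units (adjusted p = 0.00923) corrected. Control infarction over sham gave 0.22 ± 0.18 log2 units (adjusted p = 0.33), which was not called. Cdc6, the partner of Cdt1 in loading, rose in both infarction groups, at 1.40 ± 0.45 log2 units (adjusted p = 0.0151) with the Irx3 vector and 1.35 ± 0.45 log2 units (adjusted p = 0.0241) with the control vector, and the vector comparison gave 0.05 ± 0.41 log2 units (adjusted p = 0.924), or 0.08 log2 units (adjusted p = 0.91) corrected. The first of these was lost without Irx3 infarction replicate 1 (adjusted p = 0.0634), and the second in 3 of 12 fits with 1 library left out (adjusted p up to 0.0808, without control infarction replicate 4). Mcm10, which helps to start the helicase, was at 1.30 ± 0.45 log2 units (adjusted p = 0.0289) for control infarction over sham, a call lost in 6 of those 12 fits (up to 0.0842, without sham replicate 2), and at 0.29 ± 0.40 log2 units (adjusted p = 0.57) between vectors.

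Of the enzymes that supply nucleotides, Rrm2 and Tk1 were lower with the Irx3 vector. Rrm2, the regulated subunit of ribonucleotide reductase, had 5.78, 2.30, 3.32 and 4.79 CPM in the Irx3 infarction libraries, 9.31, 9.76, 15.6 and 11.2 CPM in the control infarction libraries and 1.47, 1.19, 1.77 and 0.834 CPM in the sham libraries. The 3 groups did not overlap, with control infarction highest and sham lowest. Control infarction over sham gave 3.11 ± 0.32 log2 units (adjusted p = 2.67e-05), an 8.65-fold difference, and the vector comparison -1.504 ± 0.29 log2 units (adjusted p = 0.00105), or -1.82 log2 units (adjusted p = 0.00101) corrected. Rrm1, the larger subunit of the same enzyme, stood at 0.09 ± 0.15 log2 units (adjusted p = 0.652) in the vector comparison, which became -0.55 log2 units (adjusted p = 0.00817) with the correction, and rose by 0.56 ± 0.15 log2 units (adjusted p = 0.00707) in control infarction over sham. Tyms, thymidylate synthase, had 6.91, 3.69, 4.52 and 4.48 CPM in the Irx3 infarction libraries, 4.89, 4.21, 4.44 and 7.28 CPM in the control infarction libraries and 1.83, 1.63, 0.614 and 1.53 CPM in the sham libraries. Both infarction groups lay above sham, at 1.80 ± 0.32 log2 units (adjusted p = 0.000362) with the Irx3 vector and 1.89 ± 0.32 log2 units (adjusted p = 0.000482) with the control vector, and overlapped each other (-0.09 ± 0.30 log2 units, adjusted p = 0.83). Tk1, thymidine kinase, was lower with the Irx3 vector at -0.65 ± 0.19 log2 units (adjusted p = 0.0119), but -0.39 log2 units (adjusted p = 0.14) corrected, and its rise in control infarction over sham (0.52 ± 0.19 log2 units, adjusted p = 0.0351) was lost in 9 of 12 fits with 1 library left out (adjusted p up to 0.140, without control infarction replicate 4).

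Pcna, the sliding clamp of DNA polymerases, was the replication gene called higher with the Irx3 vector. It had 19.3, 14.7, 18.9 and 22.5 CPM in the Irx3 infarction libraries, 6.79, 13.9, 16.6 and 9.82 CPM in the control infarction libraries and 11.5, 10.5, 7.85 and 11.5 CPM in the sham libraries. The groups overlap, with control infarction replicates 1 and 4 lowest among the infarction libraries. The vector comparison gave 0.68 ± 0.24 log2 units (adjusted p = 0.0324), but 0.30 log2 units (adjusted p = 0.32) corrected, and the call was lost in 5 of 12 fits with 1 library left out (adjusted p up to 0.0823, without control infarction replicate 1). Irx3 infarction over sham gave 0.86 ± 0.24 log2 units (adjusted p = 0.00763) and control infarction over sham 0.18 ± 0.25 log2 units (adjusted p = 0.559). Corrected, Irx3 infarction over sham gave 0.54 log2 units (adjusted p = 0.0484). That corrected call was lost in 4 of 8 fits with 1 infarction library left out (adjusted p up to 0.1005, without Irx3 infarction replicate 4).

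**Figure D4:**
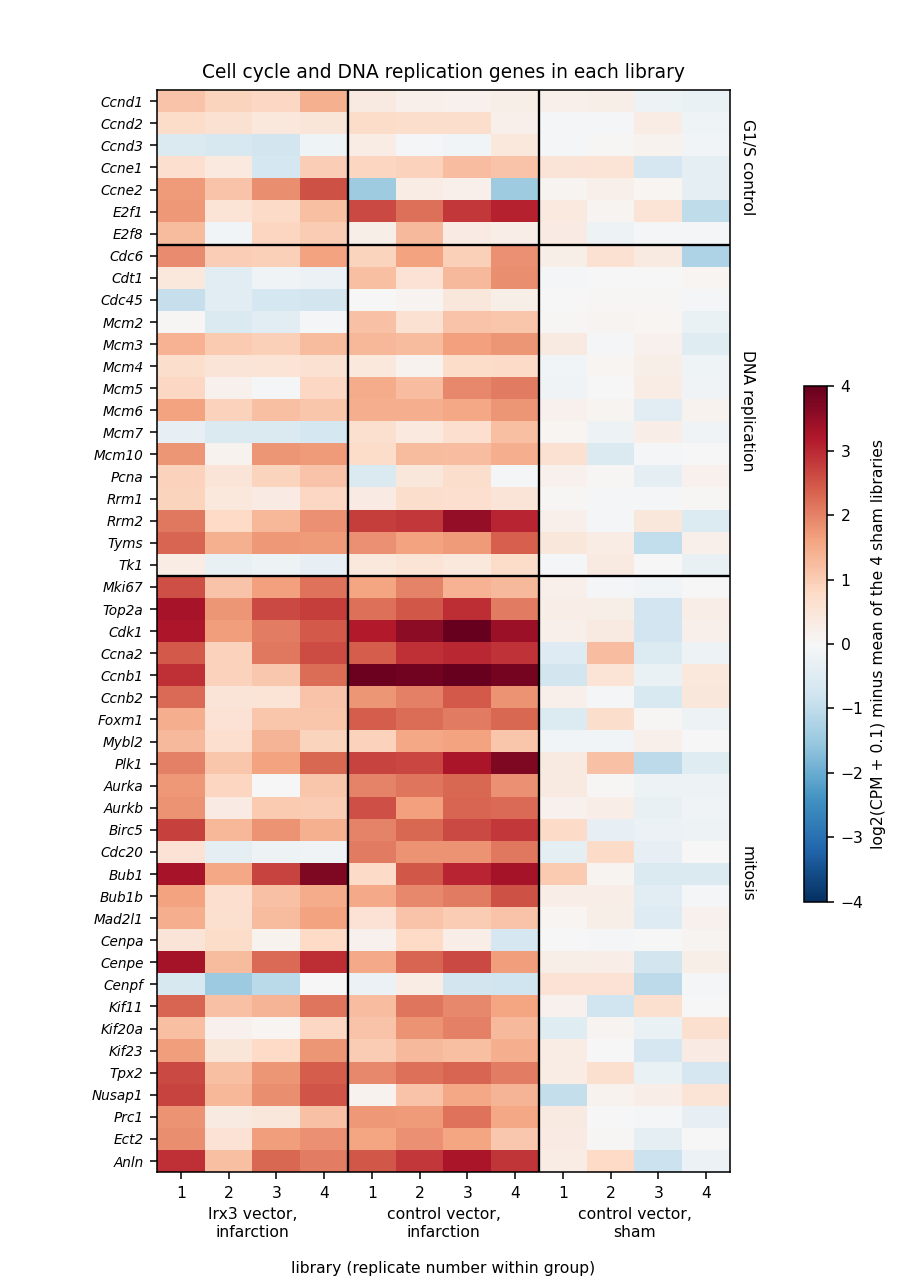
Log2 CPM of the 49 genes (down, by role) in the 12 libraries (across, Irx3 infarction, control infarction, sham), each gene relative to its mean over the sham libraries after a pseudocount of 0.1 CPM, with colours capped at 4 in either direction. Most mitosis genes are above sham in all 8 infarction libraries, and Irx3 infarction replicate 2 is the lowest of its group for 35 genes.

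The general markers of cycling cells rose in both infarction groups. Mki67, which coats mitotic chromosomes and is the standard proliferation marker, had 27.8, 10.3, 14.6 and 21.1 CPM in the Irx3 infarction libraries, 13.8, 18.3, 12.3 and 11.3 CPM in the control infarction libraries and 5.27, 4.33, 4.23 and 4.59 CPM in the sham libraries. Every infarction library was above every sham library. Over sham it was at 2.002 ± 0.27 log2 units (adjusted p = 4.65e-05) with the Irx3 vector and 1.59 ± 0.27 log2 units (adjusted p = 0.000461) with the control vector. Between the vectors it gave 0.41 ± 0.26 log2 units (adjusted p = 0.204), or 0.17 log2 units (adjusted p = 0.645) corrected, with the highest and the lowest of the 8 infarction libraries both carrying the Irx3 vector. Without Irx3 infarction replicate 2 that difference was 0.63 (adjusted p = 0.0396). Top2a, the topoisomerase that untangles chromosomes, had 19.5, 6.75, 12.3 and 13.5 CPM in the Irx3 infarction libraries, 9.11, 11.04, 15.4 and 8.37 CPM in the control infarction libraries and 2.32, 2.26, 1.09 and 2.29 CPM in the sham libraries. It too was above sham in every infarction library, at 2.70 ± 0.34 log2 units (adjusted p = 2.53e-05) with the Irx3 vector and 2.46 ± 0.34 log2 units (adjusted p = 0.000123) with the control vector, and the vector comparison gave 0.25 ± 0.30 log2 units (adjusted p = 0.518), or -0.38 log2 units (adjusted p = 0.343) corrected.

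The kinase and cyclin that drive entry into mitosis rose most with infarction. Cdk1 had 4.74, 1.53, 2.02 and 2.74 CPM in the Irx3 infarction libraries, 4.58, 6.10, 8.14 and 5.48 CPM in the control infarction libraries and 0.491, 0.565, 0.205 and 0.487 CPM in the sham libraries. Control infarction over sham gave 3.77 ± 0.41 log2 units (adjusted p = 3.25e-05), a 13.6-fold difference with no overlap. The vector comparison gave -1.14 ± 0.34 log2 units (adjusted p = 0.0138), or -1.24 log2 units (adjusted p = 0.0173) corrected; Irx3 infarction replicate 1 lay within the control infarction range, and without control infarction replicate 3 the value was -0.95 (adjusted p = 0.0518). Ccnb1, cyclin B1 and the partner of CDK1, had 2.02, 0.431, 0.490 and 1.22 CPM in the Irx3 infarction libraries, 4.17, 3.96, 5.24 and 3.93 CPM in the control infarction libraries and 0.0702, 0.314, 0.137 and 0.278 CPM in the sham libraries. These values rest on 75 reads over the 4 Irx3 infarction libraries, 314 over the control infarction libraries and 12 over the sham libraries. Control infarction over sham gave 4.37 ± 0.54 log2 units (adjusted p = 6.29e-05), the largest rise of the 49 genes and a 20.7-fold difference. With the Irx3 vector Ccnb1 was 4.15-fold lower than with the control vector, at -2.05 ± 0.44 log2 units (adjusted p = 0.00186) or -2.59 log2 units (adjusted p = 0.00136) corrected, and at -2.64 without Irx3 infarction replicate 1. Its excess over sham was 2.32 ± 0.57 log2 units (adjusted p = 0.00308) in the Irx3 infarction group, and 1.67 (adjusted p = 0.0139) without that library. Corrected, the excess was 1.85 log2 units (adjusted p = 0.0164), and 1.24 (adjusted p = 0.0631, not called) without that library.

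Cyclins A2 and B2 and the other mitotic factors rose over sham too. Ccna2 gave 2.72 ± 0.46 log2 units (adjusted p = 0.000417) for control infarction over sham, and 3.44 without sham replicate 2. Ccnb2 gave 2.10 ± 0.43 log2 units (adjusted p = 0.00154), and Mybl2, the B-MYB factor, 1.43 ± 0.30 log2 units (adjusted p = 0.00174). For the vector comparison these stood at -0.70 ± 0.40 log2 units (adjusted p = 0.17), -0.75 ± 0.39 log2 units (adjusted p = 0.132) and -0.26 ± 0.28 log2 units (adjusted p = 0.453) in the same order, or -0.99 log2 units (adjusted p = 0.0865), -0.69 log2 units (adjusted p = 0.215) and 0.29 log2 units (adjusted p = 0.502) corrected, none of them called. Foxm1, the activator of mitosis genes, had 5.08, 2.73, 3.92 and 3.95 CPM in the Irx3 infarction libraries, 9.88, 8.72, 7.91 and 9.04 CPM in the control infarction libraries and 1.19, 2.95, 1.84 and 1.53 CPM in the sham libraries. Its control infarction libraries were above the other 8. It rose in control infarction by 2.23 ± 0.27 log2 units (adjusted p = 5.66e-05) and was lower with the Irx3 vector at -1.18 ± 0.25 log2 units (adjusted p = 0.00208), or -0.71 log2 units (adjusted p = 0.0468) corrected.

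Cdc20, which activates the anaphase-promoting complex and so ends metaphase, was the mitosis gene with the smallest p in the vector comparison. It had 4.05, 2.06, 2.34 and 2.43 CPM in the Irx3 infarction libraries, 11.7, 9.64, 9.57 and 12.04 CPM in the control infarction libraries and 2.04, 4.65, 2.12 and 2.64 CPM in the sham libraries. The Irx3 infarction libraries lay in the sham range, and every control infarction library was above both groups. The vector comparison gave -1.98 ± 0.28 log2 units (adjusted p = 0.000155), a 3.93-fold lower level, or -1.44 log2 units (adjusted p = 0.00231) corrected, control infarction over sham gave 1.90 ± 0.28 log2 units (adjusted p = 0.000201), and Irx3 infarction over sham -0.07 ± 0.29 log2 units (adjusted p = 0.836). Aurkb, a kinase of the chromosomal passenger complex, had 3.21, 1.101, 1.91 and 1.82 CPM in the Irx3 infarction libraries, 5.61, 2.93, 4.73 and 4.49 CPM in the control infarction libraries and 0.983, 1.07, 0.683 and 0.765 CPM in the sham libraries. The infarction groups overlap through Irx3 infarction replicate 1. Aurkb was lower with the Irx3 vector, at -1.14 ± 0.31 log2 units (adjusted p = 0.00902), but -0.82 log2 units (adjusted p = 0.0708) corrected, and control infarction over sham 2.33 ± 0.34 log2 units (adjusted p = 0.00018).

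Of the other mitotic kinases, checkpoint genes and motors, Plk1, Aurka, Bub1b and Kif20a were lower with the Irx3 vector, while Bub1 (0.36), Kif11 (0.07), Kif23 (0.02) and Cenpe (0.56) were not called. Plk1, which promotes entry into mitosis and separation of the poles, gave -1.40 ± 0.42 log2 units (adjusted p = 0.0143), or -0.83 log2 units (adjusted p = 0.15) corrected, and Aurka, a kinase of the spindle poles, -1.05 ± 0.32 log2 units (adjusted p = 0.0145), or -0.83 log2 units (adjusted p = 0.0693) corrected. Bub1b, of the spindle checkpoint, gave -0.81 ± 0.27 log2 units (adjusted p = 0.0247), or -0.67 log2 units (adjusted p = 0.0883) corrected. Kif20a, a motor of cell division, gave -0.98 ± 0.33 log2 units (adjusted p = 0.0241), or -1.02 log2 units (adjusted p = 0.0332) corrected. Both uncorrected calls were lost in 4 of 12 fits with 1 library left out: Bub1b at an adjusted p up to 0.0882 without control infarction replicate 4, and Kif20a up to 0.0815 without control infarction replicate 3. Nusap1, a spindle-binding protein, was the mitosis gene called higher. It had 3.80, 1.39, 2.07 and 3.34 CPM in the Irx3 infarction libraries, 0.566, 1.22, 1.65 and 1.45 CPM in the control infarction libraries and 0.211, 0.565, 0.614 and 0.765 CPM in the sham libraries. Irx3 infarction replicate 2 lay within the control infarction range. The call of 1.11 ± 0.42 log2 units (adjusted p = 0.0404) became 0.29 log2 units (adjusted p = 0.645) with the correction and was lost in 6 of 12 fits with 1 library left out (adjusted p up to 0.124, without Irx3 infarction replicate 1).

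The remaining mitosis genes were not called in the uncorrected vector comparison. Their log2 fold changes ran from -0.76 in Prc1, which bundles spindle microtubules, to 0.56 in Cenpe, a motor of the kinetochore. Ect2 and Anln, which organise the cleavage furrow, and Mad2l1, of the spindle checkpoint, were at 0.02 ± 0.33 log2 units (adjusted p = 0.962), -0.65 ± 0.36 log2 units (adjusted p = 0.15) and 0.30 ± 0.25 log2 units (adjusted p = 0.347). They joined the lower genes with the correction, at -0.98 log2 units (adjusted p = 0.0284), -1.05 log2 units (adjusted p = 0.0477) and -0.73 log2 units (adjusted p = 0.0408), and so did Prc1 at -1.41 log2 units (adjusted p = 0.00544). Leaving out 1 infarction library, the corrected call was lost in 4 of 8 fits for Ect2 (adjusted p up to 0.0754). It was lost in 7 for Anln (up to 0.119), 4 for Mad2l1 (up to 0.108) and 0 for Prc1. In control infarction over sham 12 other mitosis genes, among them Birc5 (survivin), the motors Kif11 and Kif23 and the spindle assembly factor Tpx2, rose by 1.00 (Mad2l1) to 2.84 (Anln) log2 units. Plk1 gave 3.07 ± 0.48 log2 units (adjusted p = 0.000249), and 3.70 without sham replicate 2. Bub1, a checkpoint kinase with 4 reads in all over the sham libraries and none in 2 of them, gave 3.52 ± 0.94 log2 units (adjusted p = 0.00743), and 4.87 without sham replicate 1. Cenpa and Cenpf, genes of the centromere, did not follow the rest. Cenpa, the centromeric histone, gave 0.23 ± 0.24 log2 units (adjusted p = 0.46), and Cenpf gave -0.44 ± 0.39 log2 units (adjusted p = 0.368), with sham libraries of Cenpf spread from 4.37 to 13.6 CPM.

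Against sham, several values of the Irx3 infarction group moved when 1 library was left out, some to a lost call and some to a larger rise. Without Irx3 infarction replicate 1, Ccnb2 was at 0.70 (adjusted p = 0.107), Aurka at 0.69 (adjusted p = 0.0781) and Prc1 at 0.65 (adjusted p = 0.0681), against 1.35, 1.11 and 1.08 with it, all uncorrected. The corrected Aurka call held in all 8 fits with 1 infarction library left out (adjusted p up to 0.0188, without that replicate). Corrected, Ccnb2 was lost in 1 of them (0.0557, without that replicate), and Prc1 was not called with all libraries (0.211). Without sham replicate 2, Ccna2 was at 2.74 against 2.03, and Plk1 at 2.30 against 1.67. Without sham replicate 1, Bub1 was at 5.23 against 3.88.

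The libraries of the Irx3 infarction group spread widely, and did so together across genes. Replicate 1 was the highest of its group for 33 of the 49 genes and replicate 2 the lowest for 35. In the control infarction group, replicate 1 was the lowest for 26 genes, and replicates 4 and 3 the highest for 18 and 17. Summed CPM of the 27 mitosis genes lay between 84.9 and 172 in the Irx3 infarction libraries, 140 and 173 in the control infarction libraries, and 44.3 and 65.2 in the sham libraries. For the 15 replication genes the sums were 122 to 172 CPM in the Irx3 infarction libraries, 181 to 248 CPM in the control infarction libraries and 98.2 to 110 CPM in the sham libraries. These uncorrected sums of the infarction groups did not overlap. Their median log2 CPM did, at 2.60 to 3.52 in the Irx3 infarction libraries and 3.28 to 3.97 in the control infarction libraries. Gene by gene, the infarction groups were apart for 7 of the 15 and overlapped for 8.

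Markers of some cell types moved with these comparisons and others did not. In control infarction over sham, 10 of 10 fibroblast, 10 of 10 macrophage and monocyte and 10 of 10 T and NK cell markers rose, and 7 of 10 cardiomyocyte markers fell. Of all tested genes 26.3% rose and 22.4% fell. Of the markers tested, 4 of 5 B cell and 2 of 5 neutrophil markers rose, and 0 of 6 erythroid precursor markers were called. Of 10 endothelial markers 1 rose and 3 fell, and of 10 mural markers 2 rose and 3 fell. The summed macrophage and monocyte markers lay between 903 and 1699 CPM in the Irx3 infarction libraries, 1365 and 3173 CPM in the control infarction libraries, and 438 and 554 CPM in the sham libraries. The summed cardiomyocyte markers lay between 22405 and 40344 CPM in the Irx3 infarction libraries, 18143 and 49812 CPM in the control infarction libraries, and 79553 and 96412 CPM in the sham libraries. With the Irx3 vector against the control vector, 2 of 10 fibroblast markers and 5 of 10 macrophage and monocyte markers were lower (edgeR), where 24.1% of all tested genes were. With the correction for GC content 4 fibroblast markers and no macrophage marker were lower, where 13.3% of all tested genes were. At an unadjusted p under 0.05, 1 macrophage marker was lower with the correction. Of 10 endothelial markers 7 were lower and 3 higher, or 4 and 1 corrected. Mural markers split into 3 lower and 3 higher of 10, or 1 and 2 corrected. The uncorrected mural shares (30% each) were near those of all tested genes, 24.1% lower and 25.2% higher. With the correction 14.7% of all tested genes were higher. Cardiomyocyte markers gave 3 lower and 1 higher of 10, or 1 and 1 corrected. T and NK cell markers gave 1 higher and 0 lower of 10, or 2 and 0 corrected. Of 5 B cell markers 1 was higher and 0 lower in both analyses, and 0 of 5 neutrophil markers were called in either. Of 6 erythroid precursor markers 2 were lower and 0 higher, or 1 and 0 corrected. Summed B cell markers lay between 22.5 and 31.5 CPM in the Irx3 infarction libraries and 12.3 and 21.4 CPM in the control infarction libraries. In Irx3 infarction replicates 1 to 4 the fibroblast sum was 25458, 7040.5, 13081.5 and 3868 CPM. The median level of replication genes there was 3.51, 2.84, 2.60 and 3.52 log2 CPM in the same order. In control infarction replicates 1 to 4 the sum was 17497.6, 13225, 18576.5 and 36700 CPM, with medians of 3.28, 3.35, 3.97 and 3.94 log2 CPM. The part of these cell markers in the results above was not tested.

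**Figure D5:**
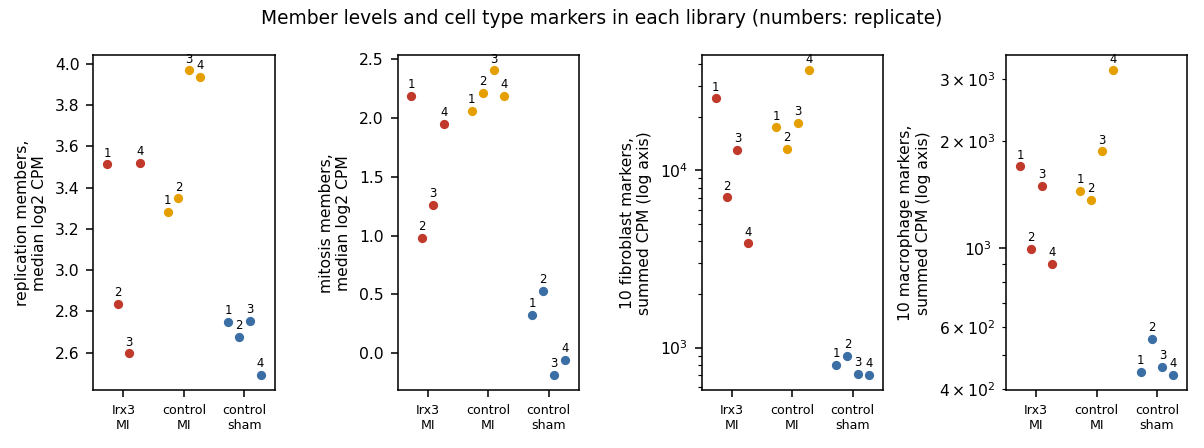
Median log2 CPM of the 15 replication genes and of the 27 mitosis genes, and summed CPM of 10 fibroblast and 10 macrophage and monocyte markers on log axes, for each of the 12 libraries (numbers: replicate). All infarction libraries are above sham for mitosis genes and both marker lists, while Irx3 infarction replicate 3 lies within the sham range for replication genes.

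Cdkn1a and Rb1, regulators that act upstream of this program and are not among the 49 genes, differed between the vectors. Cdkn1a encodes p21, an inhibitor of CDK2 that p53 induces. It had 46.0, 50.8, 58.8 and 42.0 CPM in the Irx3 infarction libraries, 231, 207, 195 and 160.0 CPM in the control infarction libraries and 142, 238, 244 and 191 CPM in the sham libraries. All 4 Irx3 infarction libraries were below the other 8. The vector comparison gave -2.01 ± 0.19 log2 units (adjusted p = 1.61e-05), a 4.01-fold lower level, or -1.57 log2 units (adjusted p = 0.000121) corrected, while control infarction over sham gave -0.04 ± 0.18 log2 units (adjusted p = 0.874). Of the 7 CDK inhibitors, 3 were lower (42.9%, against 24.1% of all tested genes) and 4 not called with the Irx3 vector. The other 2 were Cdkn1c (p57) at -0.79 ± 0.18 log2 units (adjusted p = 0.00303) and Cdkn2d (p19) at -0.62 ± 0.15 log2 units (adjusted p = 0.00425), which became -0.14 log2 units (adjusted p = 0.637) and -0.08 log2 units (adjusted p = 0.663) with the correction. Cdkn1b (p27) was at 0.17 ± 0.13 log2 units (adjusted p = 0.277), and -0.52 log2 units (adjusted p = 0.0321) corrected. With the correction 2 of the 7 inhibitors were lower (28.6%, against 13.3% of all tested genes). After control infarction 42.9% of the 7 rose, against 26.3% of all tested genes. In control infarction over sham 3 others rose, Cdkn2a, Cdkn2b and Cdkn2c, which block CDK4 and CDK6 (Cdkn2a also encodes ARF): Cdkn2a by 3.16 ± 0.71 log2 units (adjusted p = 0.00264), or 4.62 without sham replicate 4, Cdkn2b by 2.71 ± 0.55 log2 units (adjusted p = 0.00144) and Cdkn2c by 0.80 ± 0.19 log2 units (adjusted p = 0.00379). With the Irx3 vector these 3 were at -1.32 ± 0.58 log2 units (adjusted p = 0.0712), -0.33 ± 0.47 log2 units (adjusted p = 0.585) and -0.09 ± 0.19 log2 units (adjusted p = 0.717) in the same order, none called.

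Rb1, the retinoblastoma protein that holds E2F factors in check, was higher with the Irx3 vector. It had 30.8, 30.5, 40.7 and 32.7 CPM in the Irx3 infarction libraries, 8.13, 13.8, 9.79 and 5.89 CPM in the control infarction libraries and 14.3, 10.05, 8.67 and 10.5 CPM in the sham libraries. The Irx3 infarction libraries were above all others. Against the control vector the level was 3.59-fold higher, 1.84 ± 0.23 log2 units (adjusted p = 7.99e-05), or 0.99 log2 units (adjusted p = 0.000889) corrected, while control infarction over sham gave -0.21 ± 0.23 log2 units (adjusted p = 0.468). Its relative Rbl1 (p107) rose in control infarction by 1.28 ± 0.26 log2 units (adjusted p = 0.0016) and was higher with the Irx3 vector by 1.33 ± 0.24 log2 units (adjusted p = 0.000754), or 0.55 log2 units (adjusted p = 0.0645) corrected, and Rbl2 (p130) fell in control infarction by 0.47 ± 0.12 log2 units (adjusted p = 0.00471). Over the 7 pocket protein and MuvB genes, 2 were higher and 1, Lin37 (-0.79 ± 0.16 log2 units, adjusted p = 0.00149, and -0.23 log2 units, adjusted p = 0.189, corrected), lower with the Irx3 vector. The share higher (28.6%) was near that of all tested genes (25.2%), and the share lower (14.3%) was below it (24.1%). Among 8 other E2F and DP factors, E2f2 (2.65 ± 0.52 log2 units, adjusted p = 0.00113) and E2f3 (0.45 ± 0.15 log2 units, adjusted p = 0.0209) rose and Tfdp2 (-1.25 ± 0.17 log2 units, adjusted p = 0.000122) and E2f6 (-0.84 ± 0.18 log2 units, adjusted p = 0.00205) fell in control infarction over sham. E2f5 (0.99 ± 0.31 log2 units, adjusted p = 0.0166) and E2f3 (0.42 ± 0.14 log2 units, adjusted p = 0.0265) were higher and E2f4 (-0.82 ± 0.14 log2 units, adjusted p = 0.000423) lower with the Irx3 vector. These values are uncorrected. Of these 8 factors 25% rose and 25% fell after infarction without the correction, near the 26.3% and 22.4% of all tested genes. With the correction 50% rose and 25% fell, against 29.3% and 23.1%. With the Irx3 vector 25% were higher and 12.5% lower uncorrected, against 25.2% and 24.1%. Corrected, 12.5% were higher and 12.5% lower, near the 14.7% and 13.3% of all tested genes. Only 1 of the 8 was then higher, so E2f5 and E2f3 did not both keep their calls. Without 1 library the E2f3 calls were lost in 4 of 12 fits for infarction (adjusted p up to 0.0990, without control infarction replicate 1) and in 3 for the vector (up to 0.0797, without Irx3 infarction replicate 4), and the E2f5 call in 1 (0.0502, without Irx3 infarction replicate 4). Cdk6 rose in control infarction by 0.83 ± 0.22 log2 units (adjusted p = 0.00754), and Cdk2 and Cdk4 were not called in either comparison without the correction. With the correction 2 of these 3 kinase genes rose in control infarction (66.7%, against 29.3% of all tested genes). In the corrected vector comparison 0 of the 3 were called.

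Other genes of the same 2 processes were listed by function. Of 46 further mitosis genes tested, 38 rose (82.6%, against 26.3% of all tested genes) and 2 fell (4.35%, against 22.4%) in control infarction over sham. Their median log2 fold change was 2.35. The smallest p belonged to Iqgap3, a scaffold protein (3.36 ± 0.37 log2 units, adjusted p = 3.25e-05), and Kif2c, a microtubule-depolymerising motor (3.69 ± 0.51 log2 units, adjusted p = 0.000125); Spc24 of the kinetochore (-0.84 ± 0.21 log2 units, adjusted p = 0.00528) and Pttg1, securin (-0.72 ± 0.23 log2 units, adjusted p = 0.0179), fell, Pttg1 not without sham replicate 4 (adjusted p = 0.0640). With the Irx3 vector 15 of the 46 were lower (32.6%, against 24.1% of all tested genes) and 3 higher (6.52%, against 25.2%). With the correction 9 were lower (19.6%, against 13.3%) and 1 higher (2.17%, against 14.7%). The lower genes were led by Iqgap3 (-2.67 ± 0.35 log2 units, adjusted p = 9.07e-05, and -2.13 log2 units, adjusted p = 0.00116, corrected) and the kinase gene Nek2 (-2.27 ± 0.47 log2 units, adjusted p = 0.0015, and -2.13 log2 units, adjusted p = 0.00613, corrected, and -2.88 uncorrected without Irx3 infarction replicate 1). Smc4 of condensin (1.04 ± 0.20 log2 units, adjusted p = 0.000908, and 0.03 log2 units, adjusted p = 0.924, corrected) and Pttg1 (0.94 ± 0.23 log2 units, adjusted p = 0.00411, and 0.64 log2 units, adjusted p = 0.0284, corrected) were among the 3 higher genes.

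Of 44 further replication genes, 16 rose (36.4%, against 26.3% of all tested genes) and 3 fell (6.82%, against 22.4%) in control infarction over sham. Their median log2 fold change was 0.22. Clspn, claspin of the replication checkpoint (3.24 ± 0.42 log2 units, adjusted p = 8.68e-05), and Lig1, the DNA ligase (1.40 ± 0.21 log2 units, adjusted p = 0.000213), rose, and Gmnn, geminin, which inhibits Cdt1 (-1.14 ± 0.30 log2 units, adjusted p = 0.00661), and Pold2 of DNA polymerase delta (-0.46 ± 0.14 log2 units, adjusted p = 0.0177) fell, Pold2 in 10 of 12 fits with 1 library left out (adjusted p up to 0.0583, without sham replicate 3). With the Irx3 vector 8 were higher (18.2%, against 25.2% of all tested genes) and 11 lower (25%, against 24.1%). With the correction 1 was higher (2.27%, against 14.7%) and 6 lower (13.6%, against 13.3%), so the share lower was near that of all tested genes in both analyses. Orc4 and Orc3, subunits of the origin recognition complex, were higher at 1.97 ± 0.27 log2 units (adjusted p = 0.000111) and 0.96 ± 0.18 log2 units (adjusted p = 0.000769), and at 0.65 log2 units (adjusted p = 0.00912) and -0.20 log2 units (adjusted p = 0.159) corrected. Pold1, the catalytic subunit of polymerase delta (-1.21 ± 0.17 log2 units, adjusted p = 0.000125, and -0.53 log2 units, adjusted p = 0.00214, corrected), and Pold2 (-1.06 ± 0.15 log2 units, adjusted p = 0.000118, and -0.42 log2 units, adjusted p = 0.028, corrected) were lower.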

How the data were processed

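RNA of 12 left ventricle libraries was sequenced after selection of polyadenylated transcripts, per the labels' protocols. The deposited table holds read counts per gene and library, made by the authors from reads trimmed with fastp (version not given) and the genome build GRCm39 (mm39), per the submitters' processing notes; which aligner, counter, annotation and strand were used is not given in the sources used here. Every numeric column was matched to its sample by title. Symbols repeat in 882 rows, none of them among the 49 genes.

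Counts were tested with edgeR 4.0.16 (R 4.3.3, limma 3.58.1): filterByExpr, TMM factors, a robust quasi-likelihood fit with 1 term per group over all 12 libraries (9 residual degrees of freedom) and Benjamini-Hochberg adjustment over 15742 genes, called at 0.05. CPM are counts scaled to the TMM-adjusted library size. Fold changes are Irx3 vector over control vector, or infarction over sham. For the correction for GC content, log2 CPM relative to the gene mean was fitted in each library by a natural spline in GC content (6 degrees of freedom) over genes of mean log2 CPM of 2 or more, in 3 rounds that left out residuals over 2.5 median absolute deviations. The fitted trend served as the offset of the edgeR fit. Each symbol took the GC content of its longest GENCODE M21 transcript (GRCm38), found for 15182 genes, 96.44% of those tested, and for all 49. The steps were tested on simulated counts. Alternatives were other scaling factors, DESeq2 1.42.0, other filters, only the groups compared, no mitochondrially encoded genes, a block for replicate number, and leaving out each library; leaving out single libraries together with the GC correction was chosen after seeing the data.

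The 49 genes, the other lists and the tests were chosen with earlier results of these data known. Genes described library by library were, in each comparison, the 3 of smallest p per direction and role, up to 12 called genes per direction in the vector comparison, the D cyclins, Mki67 and Top2a; others are given by range and count. The smallest mean chi-square per gene over pairs of libraries was 7.934, so no pair of libraries was within sampling noise. Motifs were counted in RefSeq promoter windows, with the first entry used for the 4 genes that have several.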

Additional observations from a re-analysis of the deposited data

Results flagged for a closer look

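In 4 of 72 groups of 4 libraries, over the 24 genes given library by library, 1 library stood far from the other 3 by Dixon's criterion at the 95% level, which chance meets in about 1 group in 20. Ccnd2 was at 122 CPM in control infarction replicate 4, while the other control infarction libraries lay between 172 and 173 CPM. Mcm2 was at 19.9 CPM in control infarction replicate 2, while the others lay between 28.2 and 29.2 CPM. In sham replicate 3, Mcm6 was at 5.87 CPM, against 8.48 to 8.85 CPM in the other sham libraries. In the same library Top2a was at 1.09 CPM, against 2.26 to 2.32 CPM in the others.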

How the results depend on the processing

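The rise of the 49 genes after infarction kept its size: 35 to 41 of 49 rose under every alternative run. The vector comparison depended on GC content. Of all genes, 7760 were called, 6765 to 8353 without 1 library, 4406 with the GC correction, 4122 with it and without both replicates 4, and with it and without 1 library 3244, 4865, 3575 and 3840 (control infarction replicates 1 to 4) and 4304, 3203, 3863 and 3839 (Irx3 infarction replicates 1 to 4). Genes of the 49 called higher (4) numbered 2 with only the groups compared or without both replicates 4, 1 with the GC correction (also without both replicates 4), 2 to 5 without 1 library and 1 to 2 without 1 library and corrected. Genes called lower (18) numbered 15 to 23 without 1 library and 9 to 23 when also corrected, with 9 without control infarction replicate 3 and 10 without Irx3 infarction replicate 2 or 3; mitosis genes called lower (9) numbered 6 to 13 and 3 to 13, with 3 and 4 in those fits. The median of the 49 (-0.39) ran from -0.48 to -0.29 and, corrected, from -0.83 to -0.50. Among the 24 genes given library by library, and for values called in either fit, the sign turned for Ccnd3 in Irx3 infarction over sham with the GC correction (0.0505, adjusted p = 0.755), and corrected without 1 library at 0.0477, 0.0482, 0.0489 and 0.0498 (control infarction replicates 1 to 4) and 0.0658, 0.122 and 0.105 (Irx3 infarction replicates 1 to 3). It turned for Cdt1 there with the correction without both replicates 4 (0.59, adjusted p = 0.0413) and without Irx3 infarction replicate 2 (0.67, adjusted p = 0.0348). With the GC correction alone, 10 of the 49 genes turned sign in the vector comparison (7 called in neither fit) and 5 in Irx3 infarction over sham (4 called in neither: Cdt1, Mcm2, Tk1 and Cdc20). The corrected vector calls of E2f1 and Foxm1 were lost with the block (adjusted p = 0.0517 and 0.104) and, with Cdt1, without both replicates 4 (0.0807, 0.0758 and 0.141 for E2f1, Foxm1 and Cdt1). The cause was not tested.

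Replicate numbers paired nothing: of 12 pairs with the same number 0 had a correlation of deviations over 0.1, and 0 of 12 libraries correlated best with their own number in both other groups. With the replicate number as a block, 37 of the 49 genes rose after infarction, 2 were higher and 17 lower in the vector comparison, and 6679 of all genes were called. Block and GC correction together gave 1 higher and 12 lower, 5 lower mitosis genes, 3141 genes in all, and 0.0332 (adjusted p = 0.843) for Ccnd3 in Irx3 infarction over sham. Depth limits the weak genes: 13 of the 49 had under 50 reads in all over the sham libraries.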

Other observations

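Below the D cyclins, the order of levels per length was led by Pcna (12.4 ± 2.12 CPM per kilobase) and Cenpa (6.18 ± 1.19) in the Irx3 infarction group, by Mcm7 (11.6 ± 2.98) and Pcna (7.75 ± 2.85) in the control infarction group, and by Mcm7 (6.92 ± 1.04) and Pcna (6.82 ± 1.14) in the sham group (SD, n = 4 each). Mcm7 and Pcna in the sham group lay within 1 SD of each other, as did Pcna and the next gene, Mcm2 (7.60 ± 1.27), in the control infarction group. The lowest levels per length were those of Mcm10 in the Irx3 infarction group (0.280 ± 0.121 CPM per kilobase), Ccne2 in the control infarction group (0.143 ± 0.106) and Bub1 in the sham group (0.020 ± 0.029). In the infarction groups these lay within 1 SD of the next gene up, Cdc6 (0.289 ± 0.101) in the Irx3 infarction group and Mcm10 (0.227 ± 0.049) in the control infarction group.

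Depdc1a, a mitosis gene outside the 49 that failed the filter on low counts, had 39 reads over the 4 Irx3 infarction libraries, 13 over the control infarction libraries and 0 over the sham libraries.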
